A study of Mus musculus with 16 samples.

Results

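The genes described here carry out DNA replication and mitosis, and they were followed across 16 microarrays of mouse colon organoids, cultures of colon epithelium grown from crypts in a gel. They were chosen by name, as 47 gene symbols of the series, 25 for replication and 22 for mitosis, out of 18850 genes that the array names. Where a gene has several probe sets the brightest was taken, but every member had at most 1. A named probe set was found for 24 replication members and 21 mitosis members. Mcm7 and Ccnb1 had none, so they have no signal here and enter only the promoter counts. E2f1 was too dim to be tested, so the tests cover 23 replication members and 21 mitosis members.

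The organoids fell into 4 groups of 4 samples each. ATF2/7 fl + TNFa and WT + TNFa received recombinant tumour necrosis factor alpha, an inflammatory cytokine, at 50 ng/ml for 12 h, and ATF2/7 fl and WT were the groups without it. All were grown in ENR medium, which supplies epidermal growth factor, noggin and R-spondin. WT is wild type. For ATF2/7 fl the labels disagree: one gives ATF2 fl/fl with ATF7 KO, another ATF2 KO with floxed ATF7, and none says whether the floxed allele had been recombined. ATF2/7 fl therefore stands throughout for the libraries so labelled. No age, sex or source animal is given, and nothing says whether the 4 samples of a group came from separate animals or cultures, so the p-values measure only the spread between these samples, which may be technical.

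Replication starts when the MCM helicase is loaded at origins by the licensing factors Cdc6 and Cdt1 and is switched on by Cdc45 and the GINS complex. Most of these genes are transcribed at the entry into S phase by E2F factors, whereas the mitotic kinases, motors and checkpoint proteins are transcribed later under the MuvB complex, which reads a CHR element together with the CCAAT boxes bound by NF-Y. In the colon, dividing cells lie in the lower crypt, and differentiated colonocytes and goblet cells have left the cycle.

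The promoters of the members differed by list in the letters they carried. RefSeq windows of 300 bases in GRCm38.p6, with 250 bases before and 50 after the annotated start, were present for 21 replication members, 18 mitosis members and 27025 genes in all. An E2F type motif (TTTCCCGC, TTTCGCGC, TTTGCCGC or TTTGGCGC, either strand) stood in a window of 9 replication members (42.86%) and 2 mitosis members (11.11%), against 2.6% of all genes. The CHR type motif TTTGAA, searched on either strand, stood in 3 replication members (14.29%) and 14 mitosis members (77.78%), against 20.23% of all genes. CCAAT, on either strand, stood in 13 replication members (61.9%) and 17 mitosis members (94.44%), against 41.06% of all genes. Matches can overlap at their ends or on opposite strands. A match describes letters and is not a measured binding site. No build is stated for the array's own annotation, so these coordinates are those of the RefSeq table alone.

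**Figure D1:**
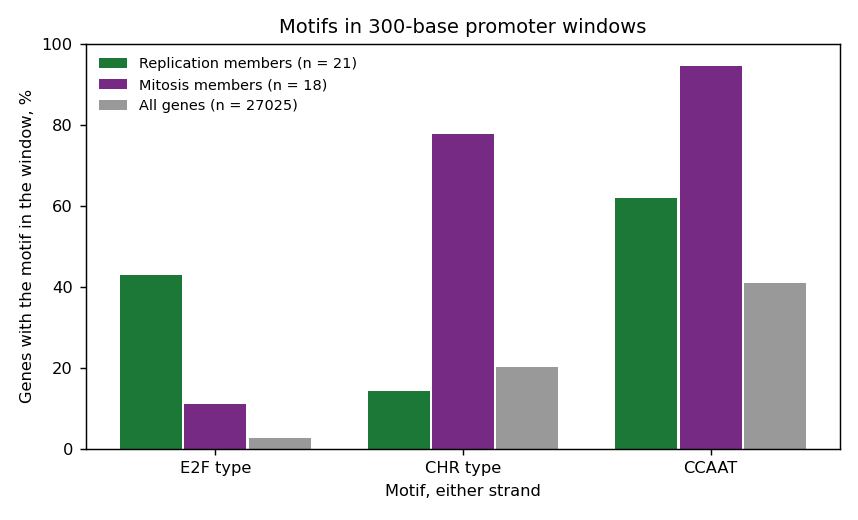
Share of genes whose 300-base promoter window holds each motif, in percent, for the replication members (n = 21), the mitosis members (n = 18) and all genes with a window (n = 27025). The E2F type motif is at 42.86% in the replication members and the CHR type motif at 77.78% in the mitosis members.

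The 250 bases before the start are shown for 6 members: Mcm6, which held 3 E2F type matches, Cdk1, which held all 3 kinds, Cdc20, whose CHR and CCAAT matches lie close together before the start, and Uhrf1, Fen1 and Prc1, the members called below. For the last 3, RefSeq gives 2 windows each, and the one shown is that with the E2F or CHR type match before the start. Sequences run 5′ to 3′ on the gene's strand, and capitals mark the motif matches, with those of the other strand as their reverse complement (such as TTCAAA in Fen1).
Mcm6, chr1:128359706-128359955, minus strand: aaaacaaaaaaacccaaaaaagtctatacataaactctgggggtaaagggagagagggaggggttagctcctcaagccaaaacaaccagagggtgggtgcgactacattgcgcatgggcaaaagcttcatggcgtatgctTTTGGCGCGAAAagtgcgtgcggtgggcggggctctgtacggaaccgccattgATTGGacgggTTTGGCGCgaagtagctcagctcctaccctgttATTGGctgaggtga
Uhrf1, chr17:56304063-56304312, plus strand: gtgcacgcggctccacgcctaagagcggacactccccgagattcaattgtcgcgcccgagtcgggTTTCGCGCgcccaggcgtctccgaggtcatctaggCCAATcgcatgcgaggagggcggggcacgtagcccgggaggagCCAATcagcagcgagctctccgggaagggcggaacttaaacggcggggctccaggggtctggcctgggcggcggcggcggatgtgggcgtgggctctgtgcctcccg
Fen1, chr19:10204394-10204643, minus strand: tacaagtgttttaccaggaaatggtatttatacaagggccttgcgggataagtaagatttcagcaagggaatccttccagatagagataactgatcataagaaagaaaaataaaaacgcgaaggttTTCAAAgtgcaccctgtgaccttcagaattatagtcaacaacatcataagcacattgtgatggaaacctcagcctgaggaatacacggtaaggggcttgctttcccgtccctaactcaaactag
Cdk1, chr10:69352913-69353162, minus strand: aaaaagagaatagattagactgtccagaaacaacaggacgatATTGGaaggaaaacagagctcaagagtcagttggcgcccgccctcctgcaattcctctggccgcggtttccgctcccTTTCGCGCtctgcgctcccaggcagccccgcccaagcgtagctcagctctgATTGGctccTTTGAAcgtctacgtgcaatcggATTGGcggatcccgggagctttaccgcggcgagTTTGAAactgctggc
Cdc20, chr4:118437344-118437593, minus strand: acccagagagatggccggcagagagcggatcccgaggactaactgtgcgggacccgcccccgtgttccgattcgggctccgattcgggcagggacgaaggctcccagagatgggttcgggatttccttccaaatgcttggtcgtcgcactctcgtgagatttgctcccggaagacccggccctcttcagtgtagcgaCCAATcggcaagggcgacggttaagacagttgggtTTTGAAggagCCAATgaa
Prc1, chr7:80294226-80294475, plus strand: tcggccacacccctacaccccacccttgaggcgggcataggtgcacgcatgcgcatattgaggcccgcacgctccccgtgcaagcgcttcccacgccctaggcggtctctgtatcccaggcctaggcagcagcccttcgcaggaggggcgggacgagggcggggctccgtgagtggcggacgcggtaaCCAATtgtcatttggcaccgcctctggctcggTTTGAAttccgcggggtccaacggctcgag
The matches of Mcm6 began at -110, -106 and -47 from the start, and the first pair overlap. Uhrf1 had its E2F type match at -185, Cdk1 at -131. CHR type matches began at -71 and -15 in Cdk1, at -18 in Cdc20 and at -30 in Prc1. Fen1 had a CHR type match alone, at -124, and its other window held none of the 3 kinds.

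Before the members are compared, the arrays themselves need describing. Log2 signals from robust multi-array averaging had array medians between 7.02 and 7.11, and WT 2 + TNFa had the highest median. That array correlated with the other 3 of its group at a mean of 0.977, against 0.986 to 0.988 for the others of WT + TNFa and 0.990 to 0.995 in the remaining groups. Changes and medians that it moves by over 1.5 times, or turns in sign, are given without it as well, for single members or for the range of their role. The Atf2 probe set read 10.10 to 10.13 in ATF2/7 fl + TNFa and 10.12 to 10.18 in ATF2/7 fl, against 10.15 to 10.20 in WT + TNFa and 10.03 to 10.33 in WT. It differed between the genotypes by -0.04 on average (SE 0.04, limma adjusted p = 0.706), so no loss of Atf2 signal was seen. Where its probes lie relative to a deleted part is not given, so this checks neither label, and Atf7 has no named probe set here. As labelled, the samples read as epithelium: all 11 measured epithelial markers passed the filter on low signal. Of 9 fibroblast and muscle markers only 3 passed, with Col3a1, Dcn, Lum and Acta2 dim on all arrays, and of 8 immune markers only 2 passed, with Cd3e, Cd79a, Itgam and Adgre1 dim on all arrays.

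The question of the main comparison was whether 12 h of TNFa changed the genes of DNA synthesis and division. It changed few of them, and no member's estimate exceeded 1.26-fold in either genotype. In WT organoids Uhrf1, Fen1 and Prc1 were higher with TNFa, in ATF2/7 fl organoids Fen1 alone passed the test, and averaged over both genotypes the same 3 genes were higher. No member was lower by the test in any comparison. In WT, 3 of 44 tested members (6.82%) passed limma's test at a Benjamini-Hochberg adjusted p under 0.05, against 10.8% of all 11766 tested genes. For ATF2/7 fl, 1 of 44 (2.27%) passed, against 5.98% of all tested genes, and in the mean over both genotypes 3 of 44 passed, against 15.0%. Each of these shares lies below that of all genes in either direction, so the counts themselves set the members apart in no way. The members' calls were all higher, and of the 11766 tested genes 592 were higher in WT, 413 in ATF2/7 fl and 917 in the mean. In bulk RNA, fewer cells of a type and less RNA per cell cannot be told apart.

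The intervals were narrow enough to bound most changes. For the TNFa effect in WT, the 95% interval lay within a 1.5-fold change either way for 23 of 23 replication members and 20 of 21 mitosis members, the exception being Bub1b. In ATF2/7 fl it did so for 23 of 23 and 19 of 21, the exceptions being Bub1b and Ncapg. The median distance of an interval's end from its estimate was 0.19 log2 for the replication members and 0.24 for the mitosis members.

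**Figure D2:**
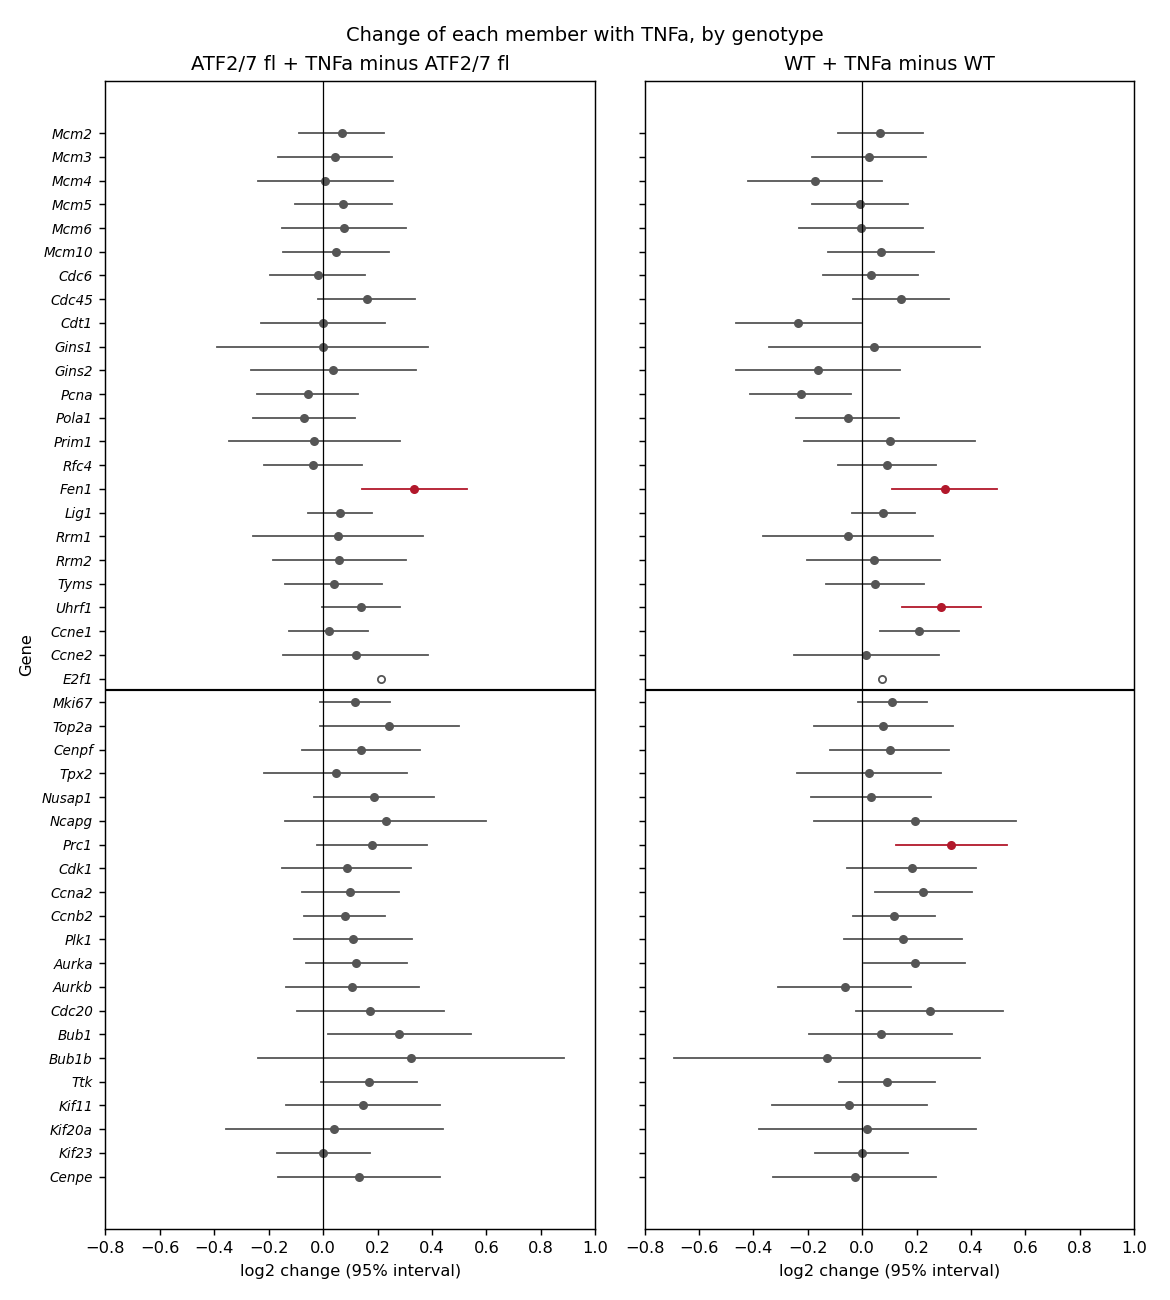
Log2 change of each member with TNFa, as ATF2/7 fl + TNFa minus ATF2/7 fl (left) and WT + TNFa minus WT (right), with 95% intervals from limma over 4 samples a group. Red marks members past the adjusted p threshold (Fen1 on the left, and Fen1, Uhrf1 and Prc1 on the right), E2f1 is an open point because it was not tested, and the thick line parts replication members above from mitosis members below.

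Among the members that join and copy DNA strands, Fen1, the flap endonuclease that trims the ends of Okazaki fragments, was the one raised in both genotypes. Its log2 signal was 7.52, 7.20, 7.52 and 7.49 in ATF2/7 fl + TNFa (samples 1 to 4, the order used for every gene), against 7.27, 7.07, 6.99 and 7.05 in ATF2/7 fl. It was 7.46, 7.48, 7.52 and 7.57 in WT + TNFa, against 7.05, 7.46, 7.11 and 7.21 in WT. Every WT + TNFa array was above every WT array, though WT 2 nearly reached them, whereas ATF2/7 fl 2 + TNFa fell below ATF2/7 fl 1. The change was 0.33 (SE 0.09, adjusted p = 0.0369) in ATF2/7 fl and 0.30 (SE 0.09, adjusted p = 0.0414) in WT, 1.26-fold and 1.23-fold. These did not differ between the genotypes by the test of the difference (0.03, SE 0.13, adjusted p = 0.981). The mean over both was 0.32 (SE 0.06, adjusted p = 0.00204), and it passed without each array in turn (adjusted p 0.000386 to 0.00613). Within a genotype the calls were fragile. In WT the adjusted p was 0.0517 without WT 2 + TNFa, 0.129 without WT 1, 0.113 without WT 3 and 0.0804 without WT 4. It was 0.0594, 0.0876 and 0.0850 without WT + TNFa 1, 3 and 4, just above 0.05 and 0.0520 without ATF2/7 fl + TNFa 1 and 4, and 0.0523 and 0.0516 without ATF2/7 fl 2 and 4. In ATF2/7 fl it was 0.119, 0.120 and 0.109 without ATF2/7 fl + TNFa 1, 3 and 4, and 0.0907, 0.108 and 0.0961 without ATF2/7 fl 2, 3 and 4.

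Pcna, the sliding clamp that holds the polymerase on DNA, stood at the other end. It read 10.89, 10.86, 11.01 and 10.93 in ATF2/7 fl + TNFa, against 10.89, 10.81, 11.13 and 11.09 in ATF2/7 fl. In WT + TNFa it read 10.79, 10.43, 10.86 and 10.76, against 10.91, 11.01, 10.87 and 10.95 in WT. All 4 WT + TNFa arrays were below all 4 WT arrays, with WT 2 + TNFa far below the rest, and the ATF2/7 fl groups overlapped. The change was -0.06 (SE 0.09, adjusted p = 0.873) in ATF2/7 fl and -0.23 (SE 0.09, adjusted p = 0.120) in WT, or -0.13 (adjusted p = 0.285) in WT without WT 2 + TNFa. Neither passed. Of the other members of this group, the primase subunit Prim1, the polymerase alpha subunit Pola1, the clamp loader subunit Rfc4 and the ligase Lig1 lay between -0.07 and 0.06 in ATF2/7 fl and between -0.05 and 0.10 in WT, none past the test. Without WT 2 + TNFa, Prim1 averaged 7.81 in WT + TNFa, against 7.62 in WT, and the WT change of Rfc4 was 0.05.

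Uhrf1, which brings the maintenance DNA methyltransferase to newly copied DNA, had the smallest p-value of the members in WT. It read 9.36, 9.28, 9.32 and 9.34 in ATF2/7 fl + TNFa, against 9.25, 9.18, 9.04 and 9.27 in ATF2/7 fl. Its WT + TNFa arrays read 9.20, 9.41, 9.31 and 9.30, against 8.96, 9.18, 8.92 and 8.99 in WT. In both genotypes every array with TNFa was above every array without it, although the nearest arrays of each pair of groups were almost level. The change in WT was 0.29 (SE 0.07, adjusted p = 0.00955), 1.22-fold, and it was 0.25 (adjusted p = 0.0231) without WT 2 + TNFa. It passed without any single array, with adjusted p up to 0.0373. In ATF2/7 fl the change of 0.14 (SE 0.07, adjusted p = 0.342) did not pass, and the difference between the genotypes was -0.15 (SE 0.10, adjusted p = 0.791), not past the test either. The mean over both genotypes was 0.22 (SE 0.05, adjusted p = 0.00486). Cyclin E1, which drives entry into S phase with its kinase, changed by 0.02 (SE 0.07, adjusted p = 0.947) in ATF2/7 fl and by 0.21 (SE 0.07, adjusted p = 0.0623) in WT. Its gene Ccne1 passed in WT without WT 2 + TNFa (0.23, adjusted p = 0.0448), when 12.2% of all tested genes did. Cyclin E2, from Ccne2, lay at 0.12 in ATF2/7 fl and 0.02 in WT, or 0.14 in WT without WT 2 + TNFa. E2f1, the transcription factor upstream of many of these genes, read 6.19 to 6.85 in ATF2/7 fl + TNFa and 5.98 to 6.52 in ATF2/7 fl, against 6.19 to 6.44 in WT + TNFa and 6.09 to 6.52 in WT, close to the filter at 6.40 to 6.56, and was not tested.

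The 11 measured members of origin licensing and the helicase moved little. Their changes ranged from -0.02 to 0.16 in ATF2/7 fl (median 0.04) and from -0.23 to 0.14 in WT (median 0.03), and none passed the test. The WT range was -0.12 to 0.28 (median 0.04) without WT 2 + TNFa, and 9 of 11 lay above 0, against 6 of 11 with it. Mcm2, a helicase subunit, read 9.50, 9.24, 9.39 and 9.36 in ATF2/7 fl + TNFa, against 9.33, 9.38, 9.26 and 9.25 in ATF2/7 fl. For WT + TNFa the values were 9.27, 9.43, 9.33 and 9.07, against 9.21, 9.30, 9.17 and 9.15 in WT. The groups overlapped in both genotypes, and the change was 0.07 (SE 0.07) in each, with adjusted p of 0.785 in ATF2/7 fl and 0.652 in WT. The WT value was 0.02 without WT 2 + TNFa. Cdc45, the helicase activator, had the largest mean change of this role, with signals close to the filter at 6.40 to 6.56. It read 6.76, 6.49, 6.62 and 6.69 in ATF2/7 fl + TNFa, against 6.72, 6.40, 6.33 and 6.47 in ATF2/7 fl. The WT + TNFa arrays gave 6.61, 6.57, 6.69 and 6.76, against 6.52, 6.65, 6.43 and 6.45 in WT. One array without TNFa in each genotype lay among those with it, and the mean change of 0.15 (SE 0.06, adjusted p = 0.106) did not pass. Cdt1, a loader of the helicase, lay at -0.00 in ATF2/7 fl and at -0.23 (SE 0.11, adjusted p = 0.198) in WT, where the value was -0.12 (adjusted p = 0.461) without WT 2 + TNFa.

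Nucleotide supply showed no change past the test. Rrm2, the small subunit of ribonucleotide reductase, read 7.42, 7.19, 7.34 and 7.29 in ATF2/7 fl + TNFa, against 7.02, 7.37, 7.20 and 7.42 in ATF2/7 fl. In WT + TNFa it read 7.32, 6.90, 7.51 and 7.28, against 7.26, 7.41, 7.03 and 7.14 in WT. The groups overlapped fully, and the changes were 0.06 (SE 0.12, adjusted p = 0.902) in ATF2/7 fl and 0.04 (SE 0.12, adjusted p = 0.877) in WT. The large subunit Rrm1 and thymidylate synthase, Tyms, lay at 0.05 and 0.04 in ATF2/7 fl and at -0.05 and 0.05 in WT. Without WT 2 + TNFa, the WT changes were 0.12 for Rrm1, 0.16 for Rrm2 (adjusted p = 0.377) and 0.02 for Tyms, so that the sign of Rrm1 depends on that array.

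Of the mitosis members, Prc1, which bundles antiparallel microtubules in the spindle midzone, was higher with TNFa in WT. It read 8.19, 7.97, 8.24 and 8.05 in ATF2/7 fl + TNFa, against 7.93, 8.01, 7.83 and 7.97 in ATF2/7 fl. Its WT + TNFa arrays read 8.19, 8.13, 8.15 and 8.17, against 7.95, 8.04, 7.47 and 7.87 in WT. The WT + TNFa arrays lay close together and above all WT arrays, of which WT 3 was by far the lowest. The change was 0.18 (SE 0.10, adjusted p = 0.407) in ATF2/7 fl and 0.33 (SE 0.10, adjusted p = 0.0374), 1.25-fold, in WT. In WT it was 0.34 (adjusted p = 0.0468) without WT 2 + TNFa, but 0.21 (adjusted p = 0.0920) without WT 3. It also failed without WT 4 (adjusted p = 0.0639) and without WT + TNFa 1, 3 or 4 (adjusted p = 0.0794, 0.0742 and 0.0647). The mean over both genotypes was 0.25 (SE 0.07, adjusted p = 0.0165), and it passed whichever array was left out, at 0.0396 or less. The difference between the genotypes was -0.15 (SE 0.14, adjusted p = 0.858).

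Mki67, which coats mitotic chromosomes and serves as the common marker of dividing cells, was among the steadiest members, with a spread of 0.07 within groups. It read 10.92, 10.80, 10.78 and 10.78 in ATF2/7 fl + TNFa, against 10.64, 10.67, 10.72 and 10.78 in ATF2/7 fl. For WT + TNFa the values were 10.74, 10.85, 10.74 and 10.77, against 10.76, 10.65, 10.53 and 10.71 in WT. The groups overlapped by a small margin in each genotype. The change was 0.12 (SE 0.06, adjusted p = 0.387) in ATF2/7 fl and 0.11 (SE 0.06, adjusted p = 0.289) in WT, with a mean of 0.11 (SE 0.04, adjusted p = 0.0906) that did not pass, and whose 95% interval of 0.02 to 0.20 ends below a 1.2-fold change. Top2a, the topoisomerase that untangles sister chromatids, read 9.16, 8.82, 9.12 and 8.94 in ATF2/7 fl + TNFa, against 8.48, 8.77, 8.84 and 8.98 in ATF2/7 fl. The WT + TNFa arrays gave 8.89, 8.63, 9.09 and 8.94, against 8.96, 8.98, 8.57 and 8.73 in WT. Both pairs of groups overlapped. Its changes were 0.24 (SE 0.12, adjusted p = 0.354) in ATF2/7 fl and 0.08 (SE 0.12, adjusted p = 0.766) in WT, or 0.16 (adjusted p = 0.451) in WT without WT 2 + TNFa. All 7 members of spindle and chromosome structure had changes above 0 in both genotypes, from 0.05 to 0.24 in ATF2/7 fl and from 0.02 to 0.33 in WT (0.08 to 0.34 without WT 2 + TNFa).

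The kinases and cyclins that start mitosis gave the same picture. Cdk1, the mitotic kinase, read 9.43, 9.23, 9.55 and 9.34 in ATF2/7 fl + TNFa, against 9.08, 9.16, 9.57 and 9.40 in ATF2/7 fl. In WT + TNFa it read 9.56, 9.23, 9.54 and 9.24, against 9.27, 9.37, 9.09 and 9.10 in WT. The groups overlapped, with changes of 0.09 (SE 0.11, adjusted p = 0.837) in ATF2/7 fl and 0.18 (SE 0.11, adjusted p = 0.364) in WT. Its partner Ccna2 read 9.55, 9.48, 9.49 and 9.49 in ATF2/7 fl + TNFa, against 9.23, 9.42, 9.53 and 9.43 in ATF2/7 fl. Its WT + TNFa arrays read 9.59, 9.57, 9.57 and 9.29, against 9.44, 9.37, 9.09 and 9.23 in WT. WT 4 + TNFa lay apart from the other 3 arrays of its group, among the WT values. The change was 0.10 (SE 0.08, adjusted p = 0.681) in ATF2/7 fl and 0.23 (SE 0.08, adjusted p = 0.107) in WT. The mean of 0.16 (SE 0.06, adjusted p = 0.0830) did not pass with all arrays, but it did without WT 1 and without WT 4 + TNFa. Ccnb2, Plk1, Aurka and Aurkb, a further cyclin and 3 kinases, lay between 0.08 and 0.12 in ATF2/7 fl and between -0.06 and 0.19 in WT. Aurkb, the lowest, was at 0.06 in WT without WT 2 + TNFa.

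Cdc20, the activator of the complex that ends metaphase, had the largest mean change among the checkpoint genes. It read 9.33, 9.06, 9.31 and 9.13 in ATF2/7 fl + TNFa, against 8.89, 8.91, 9.07 and 9.26 in ATF2/7 fl. For WT + TNFa the values were 9.14, 9.07, 9.38 and 9.27, against 9.27, 9.21, 8.72 and 8.67 in WT. The WT arrays split into a high and a low pair, and the WT + TNFa arrays lay between them or near the high pair. Its changes were 0.17 (SE 0.13, adjusted p = 0.607) in ATF2/7 fl and 0.25 (SE 0.13, adjusted p = 0.258) in WT. The checkpoint kinases Bub1 and Ttk and the checkpoint protein Bub1b lay at 0.28, 0.17 and 0.32 in ATF2/7 fl and at 0.07, 0.09 and -0.13 in WT. Bub1b had the widest spread of all members, with an SD within groups of 0.44. Its mean signal of 6.38 and that of Ttk, 6.44, lay close to the filter at 6.40 to 6.56. Without WT 2 + TNFa the WT change was 0.17 for Bub1b and 0.06 for Ttk. The 4 motor proteins ranged from 0.00 to 0.15 in ATF2/7 fl and from -0.05 to 0.02 in WT, where 1 of 4 lay above 0. When WT 2 + TNFa was left out the range was -0.03 to 0.23 (median 0.12), with 3 of 4 above 0. One of them, Cenpe, the kinetochore motor, read 8.45, 7.95, 8.35 and 8.31 in ATF2/7 fl + TNFa, against 8.01, 8.18, 8.10 and 8.24 in ATF2/7 fl. The WT + TNFa arrays gave 8.25, 7.65, 8.29 and 8.19, against 8.32, 8.33, 7.85 and 7.98 in WT. WT 2 + TNFa was the lowest of the 16 arrays for this gene. The change was 0.13 (SE 0.14, adjusted p = 0.774) in ATF2/7 fl and -0.03 (SE 0.14, adjusted p = 0.939) in WT, or 0.12 (adjusted p = 0.610) in WT without WT 2 + TNFa.

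**Figure D3:**
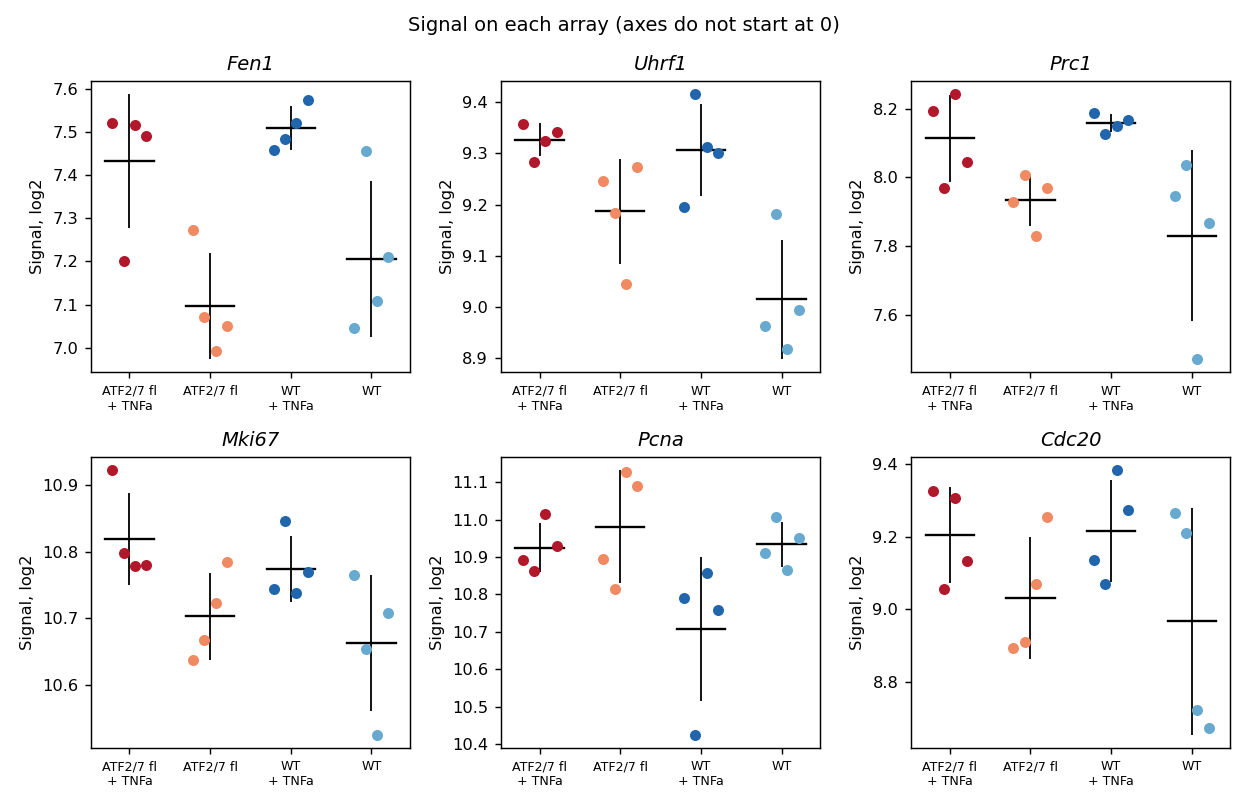
Log2 signal on each of the 16 arrays for Fen1, Uhrf1 and Prc1, which passed the test, and for Mki67, Pcna and Cdc20, which did not. Points are arrays, horizontal lines are group means and vertical lines are 1 SD (n = 4 a group), and the axes do not start at 0. Every WT + TNFa point lies above every WT point for Fen1, Uhrf1 and Prc1 and below every WT point for Pcna.

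Counted without a test, small changes above 0 were common among the mitosis members. With TNFa, 21 of 21 mitosis members lay above 0 in ATF2/7 fl (median 0.13) and 16 of 21 in WT (median 0.09), and without WT 2 + TNFa the count in WT was 20 of 21 (median 0.16). The smallest of the 21 in ATF2/7 fl, Kif23, was at 1.3e-05, in effect no change. The mitosis median in WT fell to 0.03 without WT 3, and in ATF2/7 fl it lay between 0.08 and 0.18 without each array in turn. For the 24 measured replication members the counts were 17 in ATF2/7 fl (median 0.05) and 16 in WT (median 0.04), or 20 in WT without that array (median 0.08). The replication median in WT was -0.02 without WT 3 and -0.01 without WT + TNFa 3, so it has no settled direction. Of all tested genes, 6214 of 11766 lay above 0 in ATF2/7 fl and 6221 in WT, with medians of 0.01 in each. Groups that did not overlap were found for 1 of the 45 measured members in ATF2/7 fl, Uhrf1, against 13.9% of all tested genes, and for 4 in WT, Fen1, Uhrf1 and Prc1 higher and Pcna lower, against 14.2%. They numbered 6 in WT without WT 2 + TNFa, with Gins1 and Ccne1 also higher, against 21.7% of all tested genes.

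These counts treat as separate what moved together from array to array. The list level of an array, the mean over members of the signal minus that member's mean over 16 arrays, was 0.09 ± 0.11 for mitosis in ATF2/7 fl + TNFa, against -0.05 ± 0.13 in ATF2/7 fl. It was 0.02 ± 0.17 in WT + TNFa, against -0.07 ± 0.16 in WT (SD, n = 4 each), and 0.10 ± 0.10 in WT + TNFa without array 2 (n = 3). For replication it was 0.07 ± 0.07 in ATF2/7 fl + TNFa, against 0.01 ± 0.03 in ATF2/7 fl, and -0.02 ± 0.13 in WT + TNFa, or 0.04 ± 0.06 without array 2, against -0.05 ± 0.11 in WT. All 4 pairs of groups overlapped, and a group's arrays spanned up to 0.40, from -0.19 on WT 2 + TNFa to 0.20 on WT 3 + TNFa for mitosis. In each group 1 array held many of the lowest values. WT 3 was the lowest of its group for 18 of 24 replication members and 17 of 21 mitosis members, against 35.1% of all tested genes. ATF2/7 fl 2 + TNFa was the lowest for 15 and 16 (27.94% of all tested genes), WT 2 + TNFa for 15 and 14 (30.96%), and ATF2/7 fl 1 for 11 and 17 (31.8%). Members are therefore not replicates of a condition, and no test was made of these counts.

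**Figure D4:**
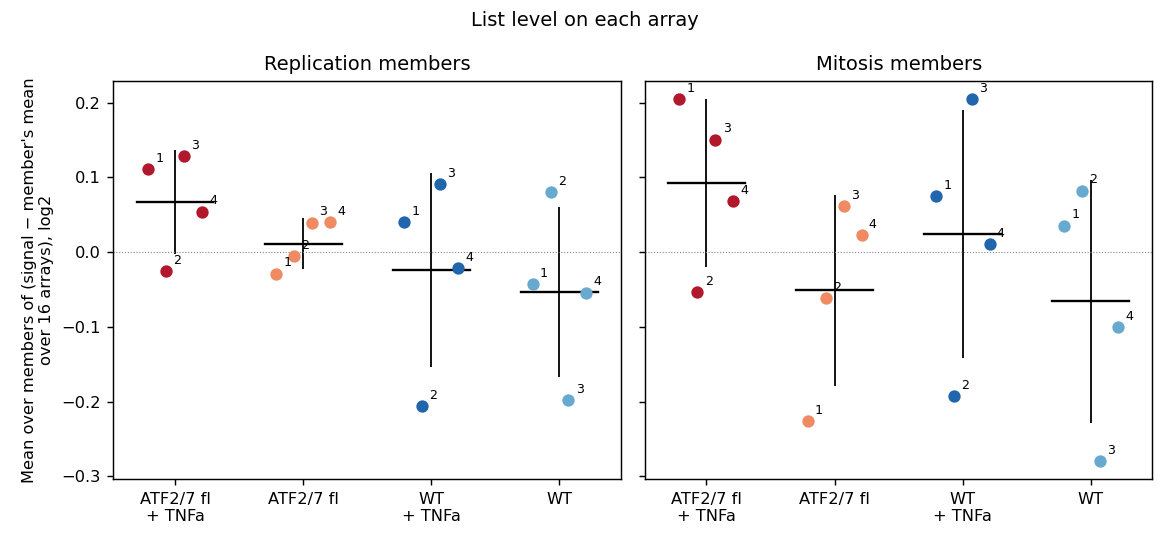
List level on each array, in log2, for the replication members (left) and the mitosis members (right): the mean over members of the signal minus the member's mean over 16 arrays. Numbers are the samples' own numbers, horizontal lines are group means and vertical lines 1 SD (n = 4 a group). The groups with and without TNFa overlap in both genotypes, and WT 3 and WT 2 + TNFa are the lowest arrays of their groups.

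The low level of WT 2 + TNFa was uneven among the members. Against the mean of the other 3 arrays of its group, its median difference was -0.16 for the replication members and -0.20 for the mitosis members, against 0.04 for all tested genes. It was more than 0.5 lower for 4 of 24 replication members and 7 of 21 mitosis members, against 4.67% of all tested genes. Bub1b was lower by 1.18, Gins1 by 0.93, Kif20a by 0.84, Gins2 by 0.83 and Rrm1 by 0.69, on the log2 scale. On that array Bub1b read 5.46, Gins1 5.86 and Kif20a 6.22, under its filter level of 6.56, so these 3 differences rest on dim signals. Mcm2 was higher by 0.20, Mcm10 by 0.19, Rfc4 by 0.17, Uhrf1 by 0.15 and Mki67 by 0.10. Genes of 1 complex thus did not move alike on it: among the helicase subunits Mcm6 was at -0.53 and Mcm4 at -0.48 while Mcm2 was at 0.20. The cause was not tested.

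**Figure D5:**
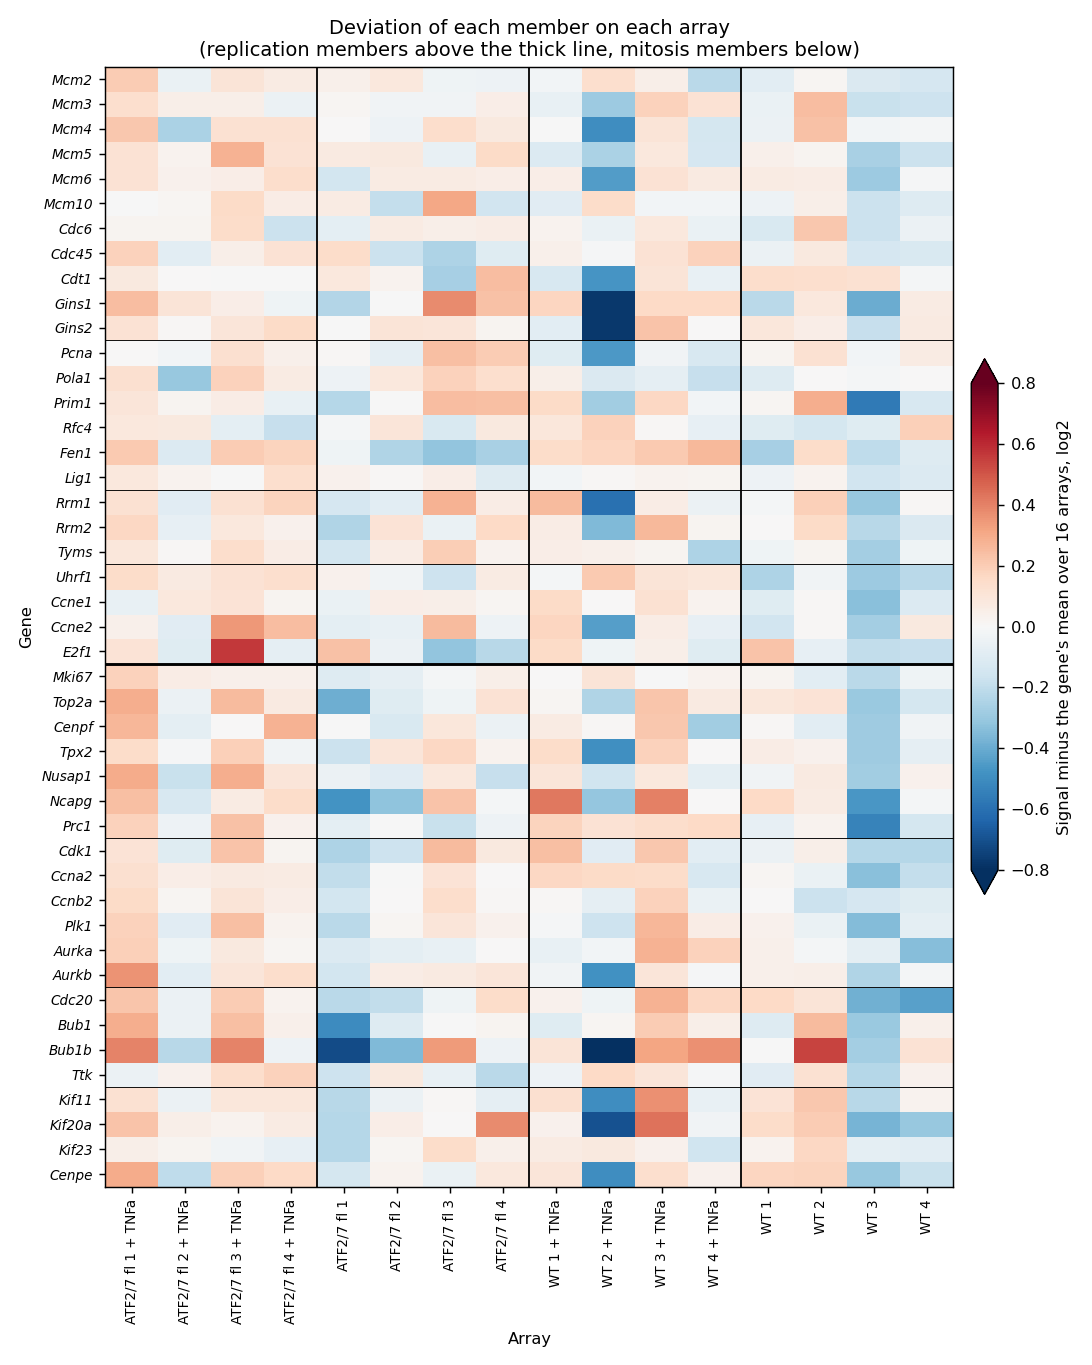
Signal of each of the 45 measured members on each of the 16 arrays, minus that member's mean over the 16 arrays, in log2 (colour scale held at -0.8 and 0.8). Thin lines part the roles and a thick line parts replication members above from mitosis members below. WT 3 is low for most members of both lists, and WT 2 + TNFa is low for some members and not for others.

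The second question was whether the genotypes differed in these genes. No member passed limma's test of that. With TNFa, 0 of 44 members passed, against 2.69% of all tested genes, and 2 had an unadjusted p under 0.05, both higher in ATF2/7 fl + TNFa. These were Mcm5, a helicase subunit (0.24, SE 0.08, adjusted p = 0.189), and Pcna (0.22, SE 0.09, adjusted p = 0.269). Pcna without WT 2 + TNFa was at 0.12 (adjusted p = 0.460), and Mcm5 (0.19, adjusted p = 0.309) was the one member left under an unadjusted 0.05. Without TNFa, 0 of 44 passed, against 2.48%, and Uhrf1 (0.17, SE 0.07, adjusted p = 0.262) and Ccne1 (0.15, SE 0.07, adjusted p = 0.353) had an unadjusted p under 0.05. In the mean over both treatments 0 of 44 passed, against 5.88%, with Mcm5 nearest at 0.19 (SE 0.06, adjusted p = 0.0679) and Pcna at 0.13 (SE 0.06, adjusted p = 0.278) the other under an unadjusted 0.05. Without WT 2 + TNFa the members under it in the mean were Mcm5 (0.17, adjusted p = 0.0934), Mcm2 (0.12, adjusted p = 0.166) and Uhrf1 (0.11, adjusted p = 0.166), and Pcna was at 0.09. Mcm5 read 8.88, 8.79, 9.04 and 8.88 in ATF2/7 fl + TNFa, against 8.66, 8.51, 8.85 and 8.63 in WT + TNFa. It read 8.83, 8.84, 8.70 and 8.91 in ATF2/7 fl, against 8.81, 8.78, 8.50 and 8.59 in WT. It passed in the mean without WT 1 and without WT + TNFa 3, and it is shown because of its values. Groups that did not overlap numbered 1 of 45 with TNFa, Pcna, against 8.89% of all tested genes, and 0 of 45 without TNFa, against 9.34%. Leaving out WT 2 + TNFa they numbered 3 with TNFa, Mcm10, Pcna and Mki67, all higher, against 16.2%.

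Counted without a test, more replication members lay above 0 than below in ATF2/7 fl against WT. With TNFa 20 of 24 replication members did (median 0.10) and 14 of 21 mitosis members (median 0.06), but without WT 2 + TNFa the counts were 14 of 24 (median 0.05) and 11 of 21 (median 0.01). Without TNFa the counts were 20 of 24 (median 0.06) and 13 of 21 (median 0.04). The replication median was 0.02 without WT 3 and 0.12 without WT 2, and the mitosis median was -0.02 without WT 3. Of all tested genes the medians were -0.00 with TNFa and -0.01 without it. The 2 genotype comparisons with and without TNFa use different samples, but each shares its groups with the TNFa comparisons above. The test of whether TNFa acted differently in the 2 genotypes passed for 0 of 44 members, none of which had an unadjusted p under 0.05, against 0.00850% of all tested genes, 1 gene.

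Genes outside the member lists were taken from 3 further lists of the same pathways. Of 37 other replication genes measured, 34 were tested: the primase subunit Prim2 was higher with TNFa in WT (0.31, SE 0.09, adjusted p = 0.0437) and in the mean (0.27, adjusted p = 0.00897), and Gmnn, the inhibitor of Cdt1, was lower in the mean (-0.21, SE 0.07, adjusted p = 0.0412). None passed in ATF2/7 fl. Of 51 other mitosis genes measured, 44 were tested. In the mean over both genotypes 6 of 44 were higher and 0 lower, when 15.0% of all tested genes passed in either direction. By direction, 917 of the 11766 tested genes were higher in that mean and 849 lower, so the list's calls lean towards higher. Without WT 2 + TNFa 12 were higher and 0 lower, a larger share than the 17.7% of all tested genes that passed in either direction. The count thus depends on that array. The 4 with the smallest p were the checkpoint gene Bub3 (0.20, SE 0.04), Shcbp1 (0.31, SE 0.07), the abscission gene Cep55 (0.36, SE 0.10) and the kinetochore gene Ndc80 (0.21, SE 0.06), with adjusted p of 0.00551, 0.00657, 0.0164 and 0.0193. In WT, Bub3 (0.25, adjusted p = 0.0144) and the centromeric histone gene Cenpa (0.28, adjusted p = 0.0324) passed, and Cenpa did not without WT 2 + TNFa (adjusted p = 0.0618) while Cep55 did (0.50, adjusted p = 0.0242). Shcbp1 passed in ATF2/7 fl (0.37, adjusted p = 0.0459). Of all tested genes 10.8% passed in WT and 5.98% in ATF2/7 fl. Neither list had a gene past the test between the genotypes with all 16 arrays in the fit. Without WT 2 + TNFa in it, the origin recognition gene Orc4 was lower in ATF2/7 fl than in WT, both without TNFa (-0.38, adjusted p = 0.0477, against 0.233 with all arrays), when 3.70% of all tested genes passed. The lists' medians in the mean over both genotypes were 0.02 for the other replication genes and 0.12 for the other mitosis genes, beside 0.03 and 0.12 for the members (0.08 and 0.14 without WT 2 + TNFa), against 0.01 for all tested genes.

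Regulators of the cycle moved in both directions. Of 34 measured, 32 were tested. With TNFa 1 was higher and 0 lower in ATF2/7 fl, when 5.98% of all tested genes passed. In WT 2 were higher and 3 lower, when 10.8% did. E2f2, an activator E2F, averaged 9.94 ± 0.10 in ATF2/7 fl + TNFa against 9.44 ± 0.11 in ATF2/7 fl, and 9.77 ± 0.29 in WT + TNFa against 9.41 ± 0.13 in WT (log2 signal, SD, n = 4 each). It was higher with TNFa by 0.50 (SE 0.11, adjusted p = 0.0108) in ATF2/7 fl and by 0.37 (SE 0.11, adjusted p = 0.0477) in WT. Without WT 2 + TNFa the WT change was 0.51 (adjusted p = 0.000620). Cdk6, a kinase of the early cycle, was higher in WT (0.33, SE 0.08, adjusted p = 0.0135), with 0.23 (adjusted p = 0.137) in ATF2/7 fl. Rb1, the repressor of E2F, was lower in WT (-0.38, SE 0.09, adjusted p = 0.0103), with -0.15 (adjusted p = 0.491) in ATF2/7 fl. Tfdp2, an E2F partner, was also lower in WT (-0.28, SE 0.07, adjusted p = 0.0215), as was the kinase inhibitor Cdkn1b (-0.23, SE 0.07, adjusted p = 0.0308), which did not pass without WT 2 + TNFa (adjusted p = 0.0679). In the mean over both genotypes 2 of 32 were higher and 4 lower, when 15.0% of all tested genes passed in either direction. Without WT 2 + TNFa 4 were higher and 3 lower, when 17.7% did, so both counts lie near that share, and Cdkn1b no longer passed (adjusted p = 0.0524). Cdkn1a, the inhibitor induced by p53, lay at -0.02 (SE 0.05, adjusted p = 0.944) in ATF2/7 fl and -0.06 (SE 0.05, adjusted p = 0.526) in WT, and Myc at -0.00 (SE 0.14) and -0.02 (SE 0.14), or 0.07 in WT without WT 2 + TNFa. Ccnd1 has no named probe set here. Between the genotypes, Lin54, a MuvB subunit, was lower in ATF2/7 fl + TNFa than in WT + TNFa (-0.32, SE 0.08, adjusted p = 0.0368), though not without WT 2 + TNFa (adjusted p = 0.0842). The antiproliferative gene Btg2 (-0.26, SE 0.06, adjusted p = 0.0172) and the kinase inhibitor Cdkn2d (-0.16, SE 0.04, adjusted p = 0.0340) were lower in ATF2/7 fl in the mean over both treatments. Thus 1 of 32 regulators passed between the genotypes with TNFa, against 2.69% of all tested genes, and 2 of 32 in the mean, against 5.88%. Both counts lie near those shares.

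Markers of the cells in the cultures moved with TNFa as well. The log2 of the summed signal of 11 crypt stem and Wnt target genes was 12.38 to 12.46 in ATF2/7 fl + TNFa, against 12.09 to 12.18 in ATF2/7 fl, and 12.21 to 12.37 in WT + TNFa, against 11.89 to 12.16 in WT. Of these 11 genes, Sox9, Cd44 and Slc12a2 passed the test in ATF2/7 fl and these and Ascl2 in WT, all higher, when 5.98% and 10.8% of all tested genes passed. In WT the other genes did not follow: 6 of 11 lay below 0 (median -0.02), among them Lgr5 at -0.21 (adjusted p = 0.189) and Znrf3 at -0.33 (adjusted p = 0.104), against 2 of 11 below 0 in ATF2/7 fl. The sum of 13 colonocyte markers was 15.11 to 15.14 in ATF2/7 fl + TNFa, against 14.90 to 14.99 in ATF2/7 fl, and 15.16 to 15.24 in WT + TNFa, against 14.93 to 15.03 in WT. The sum of 11 goblet markers was 14.96 to 14.99 in ATF2/7 fl + TNFa, against 14.98 to 15.05 in ATF2/7 fl, and 14.86 to 14.94 in WT + TNFa, against 15.02 to 15.05 in WT. The sum of 8 immune markers was 10.53 to 10.67 in ATF2/7 fl + TNFa, against 10.22 to 10.34 in ATF2/7 fl, and 10.40 to 10.47 in WT + TNFa, against 10.19 to 10.37 in WT. Its 2 tested genes parted in WT, where Cd14 was higher (0.55, adjusted p = 6.98e-07) and Lyz2 lower (-0.74, adjusted p = 0.0244), while in ATF2/7 fl Cd14 alone passed (0.50). The sum of 8 enteroendocrine markers was 12.35 to 12.60 in ATF2/7 fl + TNFa, against 12.17 to 12.38 in ATF2/7 fl, and 11.88 to 12.01 in WT + TNFa, against 12.11 to 12.21 in WT. These markers parted in WT, where Tph1 passed as higher (0.93, adjusted p = 0.000194) and Chga (-0.30), Pyy (-0.25) and Scg2 (-0.49) as lower. In ATF2/7 fl Tph1 (1.75), Gcg (0.53) and Cck (0.70) passed as higher and 0 as lower. Of the 12 tested colonocyte markers 4 were higher and 1 lower in ATF2/7 fl, and 5 higher and 1 lower in WT. Goblet markers had no call in ATF2/7 fl and 2 lower in WT. Stem, colonocyte and immune sums were thus higher on every array with TNFa in both genotypes, carried by part of each list. The goblet and enteroendocrine sums were lower on every array with TNFa in WT. Markers also differed between the genotypes. In the mean over both treatments 5 of 11 stem and 5 of 8 enteroendocrine markers were higher in ATF2/7 fl, and 0 of either list lower. Of the 12 tested colonocyte markers 2 were higher and 3 lower in that mean, when 5.88% of all tested genes passed. Between the groups without TNFa 0 stem, 0 enteroendocrine and 0 colonocyte markers passed, against 2.48% of all tested genes. With TNFa 2 of 11 stem and 6 of 8 enteroendocrine markers were higher and 0 lower, against 2.69%. There 1 colonocyte marker was higher and 1 lower. The enteroendocrine median between the genotypes was 0.03 without TNFa and 0.59 with it. The part of these shifts in the members' values was not tested.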

How the data were processed

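RNA of 16 mouse colon organoid samples, 4 in each of 4 groups, was measured on single-colour Affymetrix arrays. The deposited values are log2 signals that the authors made with robust multi-array averaging (RMA), which subtracts background, quantile normalizes the arrays and sums probes into probe sets, in Affymetrix Expression Console, per the submitters' processing notes; versions and build are not given there. RMA draws extreme values towards the common distribution, so only shifts relative to other genes are seen. Of 19825 probe sets, 18851 were named by 1 gene symbol in the platform annotation and 974 by none.

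Genes were tested if they exceeded their array's 40th percentile on at least 4 of 16 arrays, which kept 11766 of 18850. One limma fit (limma 3.58.1, R 4.3.3) with a mean per group gave 7 comparisons, moderated tests and Benjamini-Hochberg adjustment over all tested genes at 0.05; its script was tested on simulated data. No depth applies to arrays; their number limits the precision. Members, pathway lists and markers were chosen with earlier results of these data known. Values on every array are given for Mki67, Pcna, Mcm2, Cdk1 and Top2a, for each member that passed a test, and in each of 8 roles for the member with the largest mean TNFa effect. From the pathway lists up to 4 called genes per list and comparison were named, those with the smallest p, and always Cdkn1a, Ccnd1 and Myc. Motifs were counted in RefSeq promoter windows of GRCm38.p6. The alternatives were another filter or none, other scalings, other variance models, array weights, a minimum change of 1.2-fold, a replicate block, only the arrays compared, and leaving out each array. The treatment text stands on all samples, and those whose titles name TNFa were taken as treated.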

Additional observations from a re-analysis of the deposited data

Results flagged for a closer look

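Of 188 sets of 4 arrays, which are the 45 members and the levels of both lists in each group, 17 had 1 array far from the other 3, all of them sets of a member (gap over range above 0.829); chance flags about 1 set in 20. With TNFa in ATF2/7 fl these were Cdt1 at 8.45 and Mki67 at 10.92 on ATF2/7 fl 1 + TNFa, and Fen1 at 7.20 on ATF2/7 fl 2 + TNFa. In ATF2/7 fl they were Mcm6 at 8.74, Cdc6 at 7.06 and Aurkb at 9.26 on ATF2/7 fl 1, and Ccne2 at 8.60 on ATF2/7 fl 3. In WT + TNFa they were Mcm6 at 8.43, Gins1 at 5.86 and Cenpe at 7.65 on WT 2 + TNFa, and Tyms at 9.36 and Ccna2 at 9.29 on WT 4 + TNFa. In WT they were Mcm4 at 7.60 on WT 2, Cdt1 at 8.36 and Rfc4 at 8.02 on WT 4, Gins2 at 8.28 on WT 3 and Pola1 at 7.75 on WT 1. All are log2 signals.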

How the results depend on the processing

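The number of members called for the TNFa effect in WT, 3 as reported, was 1 without the filter, 1 after centring on array medians, 1 with the replicate block, 0 with only the arrays compared and 0 with a 1.2-fold minimum. Uhrf1 was the call in each of the settings that left 1. In ATF2/7 fl the 1 call became 0 without a filter, with a 60th percentile filter, with the replicate block and with the 1.2-fold minimum. Fen1 did not pass the 60th percentile filter and so was not tested there, where the 3 calls in WT were Uhrf1, Ccne1 and Prc1 and the 2 in the mean Uhrf1 and Prc1. The 3 calls of the mean TNFa effect became 6 with array weights (Cdc45, Fen1, Uhrf1, Ccna2, Aurka and Prc1) and 0 with the 1.2-fold minimum. For the mean genotype effect, 0 became 1, Mcm5, with trend and robust fitting and with quantile normalization again. Leaving out each array gave 1 to 4 calls for TNFa in WT, 0 to 1 in ATF2/7 fl, 3 to 4 for the mean TNFa effect and 0 to 1 for the mean genotype effect. The cause of these changes was not tested. Over all genes, the 1.2-fold minimum called 216 in WT, 143 in ATF2/7 fl and 255 in the mean, against 1269, 704 and 1766, and using only the arrays compared called 720 in WT. No call of a single gene changed sign. The sample numbers are not explained. Deviations of arrays with the same number correlated at -0.09 to 0.19 in ATF2/7 fl and -0.30 to 0.01 in WT. Across the genotypes they correlated at -0.10 to 0.25 with TNFa and at -0.305 to -0.035 without it. Of 16 arrays, 2 matched best with their own number. Low correlations cannot show that samples were not paired, so pairing is not known. The block called 500 genes in ATF2/7 fl and 876 in WT. Every member has 1 probe set, so averaging probe sets changed no member's values. Using only the arrays compared was run for the comparisons between 2 groups.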
